A study of Mus musculus with 9 samples.

Results

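The cytochrome P450 family 2 (Cyp2) is a large group of haem enzymes that sit in the endoplasmic reticulum and oxidise drugs, toxins, fatty acids, steroids and bile acids. They take electrons from a reductase and from cytochrome b5, and most are made in hepatocytes, where some are restricted to cells near the central vein and others to cells near the portal vein. In mice the family has expanded into tandem gene clusters whose neighbours are close copies, and several members are known to be made mainly in female or mainly in male liver. The members described here were all genes whose symbol in the platform annotation consists of Cyp2, a subfamily letter and a number, each read by a probe set (a group of probes on the array) assigned to that gene alone. They came to 35 of the 18193 genes measured.

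Each sample was read on 1 Affymetrix mouse array, and all values are log2 expression. The tumours were 5 hepatocellular carcinomas (HCC) dissected 4 months after adenovirus carrying Cre recombinase (Ad-Cre) had been injected into the spleen. Their titles say triple knockout (TKO), while the genotype field gives RbΔ/Δ; p130Δ/Δ; p107+/-. The 4 normal livers came from wild-type, tumour-free adult mice, for which no virus is mentioned, so genotype, virus and tumour differed together. Age, sex and the cells that took up the virus are not stated. Nor do the labels say whether each sample is a different mouse, so a p-value here reflects only how much these samples vary, which may be technical. Of the 35 members, 33 were read by probe sets ending in at or a_at and 2 (Cyp2c23 and Cyp2c65) by s_at probe sets, which can bind RNA of similar genes. Because members of a subfamily are close copies, any of these probe sets may include signal from a neighbour.

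Arrays of both groups showed hepatocyte RNA. Of 8 measured hepatocyte markers, 1 was lower and 1 higher in the tumours, and the level summed over the list reached 17.62 to 17.77 in tumours, against 17.65 to 17.83 in livers. Of all genes, 17.4% were called lower and 16.1% higher, and each marker count here is to be set beside those shares. Some markers of other liver cells differed between the groups. In tumours, 4 of 7 endothelial, 4 of 7 Kupffer cell and 3 of 7 stellate cell markers were lower, and 2 stellate cell markers were higher. The same sum came to 10.08 to 11.21 in tumours and 12.41 to 12.75 in livers for the endothelial list. It came to 10.59 to 13.08 in tumours and 13.01 to 13.99 in livers for the Kupffer cell list, and to 11.75 to 13.63 in tumours and 13.10 to 13.53 in livers for the stellate cell list. Among bile duct markers 1 of 5 was lower and 1 higher, with Cftr within the range of the TrpnX control (3.69 to 4.36), a bacterial sequence with no target in mouse RNA; none of 6 lymphocyte markers passed. RNA length was read as the log2 signal of 3' over 5' probes of 2 controls, which moved in opposite directions. Actb gave 0.605 ± 0.079 in the tumours (SD, n = 5) and 0.965 ± 0.044 in the livers (SD, n = 4). An exact two-sided permutation test gave p = 0.00794, the smallest it can give, and 0.0159 after adjustment over the 2 controls. Gapdh gave -0.212 ± 0.027 in the tumours (SD, n = 5) and -0.278 ± 0.049 in the livers (SD, n = 4), which did not pass (exact permutation p = 0.0635, adjusted 0.0635). All of these differences accompany each comparison of tumours with livers below, and their part in the results was not tested. In whole tissue, fewer cells that make a transcript and less of it per cell cannot be told apart.

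All Cyp2 genes that passed the test were lower in the tumours. With limma's test fitted over all genes and adjusted by Benjamini-Hochberg, 19 of the 35 members were lower in TKO HCC and 0 were higher. Over all genes, 17.4% were called lower and 16.1% higher. At an unadjusted p under 0.05 the counts were 21 lower and 0 higher, and the share of all genes at that cut was not counted. Limma with array weights gave 20 and 0, and called 20.1% of all genes lower. The median log2 difference, tumour minus liver, was -1.17 over the members, against -0.08 over all genes. Every tumour lay below every liver for 18 members, and 15.9% of all genes showed that separation. Every tumour lay above every liver for 0 members and for 14% of all genes. Of the members past the threshold, 7 were lower by 8-fold or more, against 0.462% of all genes. Among those 7, Cyp2b13 read 6.31 in liver 4, within its range in tumours (6.08 to 7.49). The other 38 genes of cytochrome P450 families had 16 lower and 1 higher, with a median of -0.44, and whether the 2 sets of P450 genes differ was not tested.

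**Figure D1:**
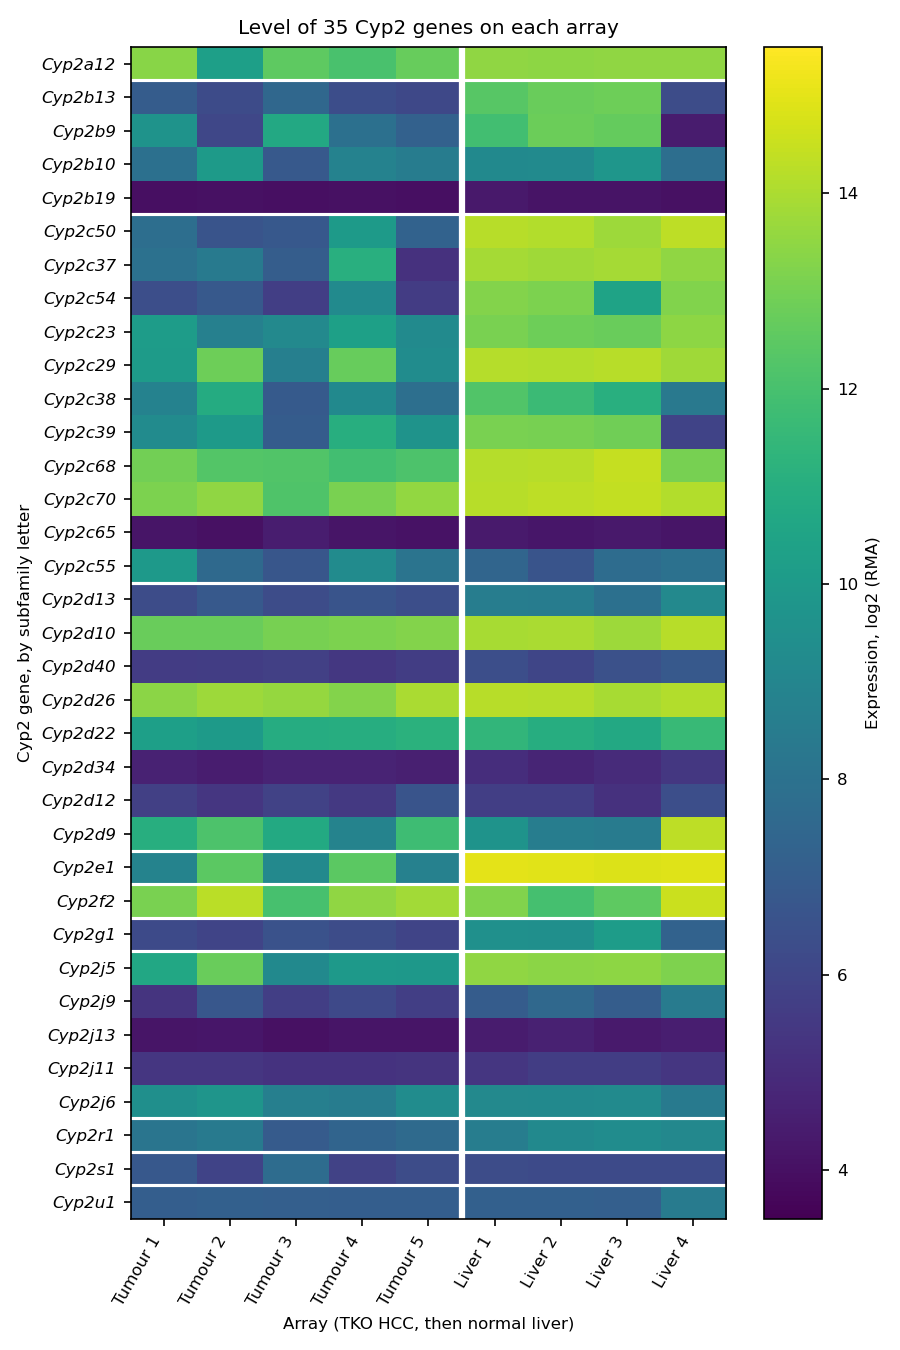
Log2 expression (colour) of the 35 Cyp2 genes, in rows by subfamily letter, on 5 tumour and 4 liver arrays, in columns. Cyp2c37, Cyp2c50, Cyp2c54 and Cyp2e1 are darker in every tumour than in any liver. Cyp2f2, Cyp2d10, Cyp2d26 and Cyp2c70 stay at 11.98 or above on every array, although all of these but Cyp2f2 were called lower.

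**Figure D2:**
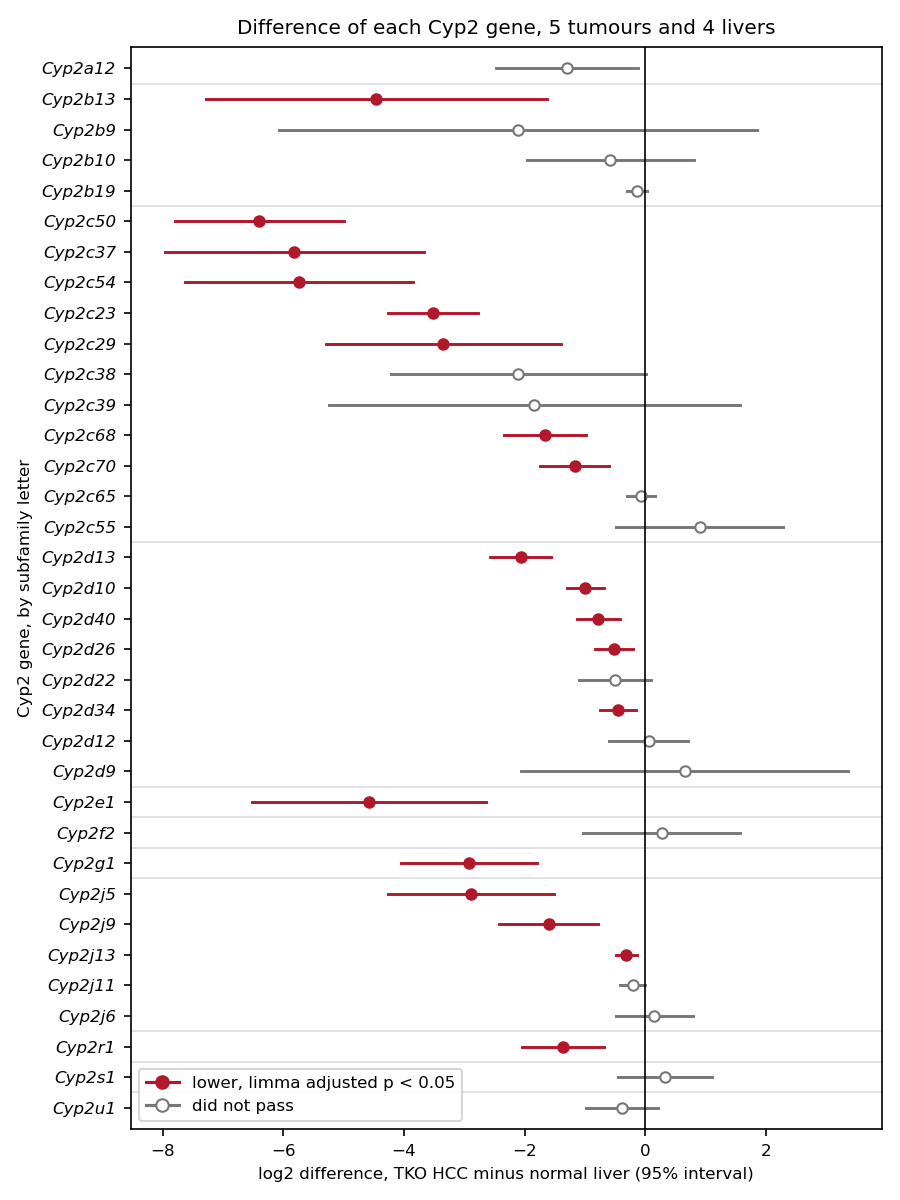
Log2 difference (TKO HCC minus normal liver) of each Cyp2 gene with its 95% interval from limma, by subfamily letter. Filled points mark the 19 genes with an adjusted p under 0.05, all of them on the negative side.

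The deepest losses lay next to each other in the 2c subfamily. Cyp2c37, Cyp2c54 and Cyp2c50 encode enzymes that oxidise fatty acids such as arachidonic acid, and they are neighbours in this order on chromosome 19. Cyp2c50 stood at 7.82, 6.61, 6.80, 10.02 and 7.26 in tumours 1 to 5, against 14.21, 14.12, 13.74 and 14.32 in livers 1 to 4. The groups did not overlap, and even tumour 4, the highest, lay far below the lowest liver. The log2 difference was -6.40 (SE 0.62, limma adjusted p = 9.5e-05), which is 84.3-fold. Cyp2c37 read 7.99, 8.39, 7.02, 11.09 and 5.22 in tumours, against 13.88, 13.80, 13.87 and 13.51 in livers, a log2 difference of -5.82 (SE 0.95, adjusted p = 0.00184). Its livers were within a narrow band, whereas its tumours spread widely, tumour 4 again highest and tumour 5 lowest. Cyp2c54 was 6.39, 6.87, 5.72, 9.22 and 5.63 in tumours, against 13.26, 13.11, 10.44 and 13.23 in livers, a log2 difference of -5.74 (SE 0.84, adjusted p = 0.00101). Liver 3 stood apart from the other livers for Cyp2c54, yet still above every tumour.

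Because these copies are so alike, the promoters of 3 pairs from the same gene clusters are shown here (RefSeq, GRCm38.p6, 250 bases before to 50 bases after the annotated start). Capitals mark the bases that have no identical partner in a global alignment with the other member of the pair. Cyp2c50 (chr19:40089429-40089728, plus strand) and Cyp2c37 (chr19:39992174-39992473, plus strand) share 264 of 300 bases, and their transcripts gave the largest differences of the family.
Cyp2c50: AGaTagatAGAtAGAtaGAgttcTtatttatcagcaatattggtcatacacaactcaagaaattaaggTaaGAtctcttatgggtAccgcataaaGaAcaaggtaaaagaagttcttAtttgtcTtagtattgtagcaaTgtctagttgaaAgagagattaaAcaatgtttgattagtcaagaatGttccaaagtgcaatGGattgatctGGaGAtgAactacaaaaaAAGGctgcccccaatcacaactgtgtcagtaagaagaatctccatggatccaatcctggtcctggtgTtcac
Cyp2c37: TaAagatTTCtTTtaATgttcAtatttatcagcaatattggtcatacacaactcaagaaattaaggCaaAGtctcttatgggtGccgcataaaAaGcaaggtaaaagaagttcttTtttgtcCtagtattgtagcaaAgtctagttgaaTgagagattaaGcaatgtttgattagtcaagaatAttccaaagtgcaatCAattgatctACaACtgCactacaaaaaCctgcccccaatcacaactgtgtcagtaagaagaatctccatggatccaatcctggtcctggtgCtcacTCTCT
Cyp2b13 (chr7:26061245-26061544, plus strand) and Cyp2b9 (chr7:26173159-26173458, plus strand) share 298 of 300 bases. Both were far lower in liver 4 than in the other livers. Their tumours ranged over 6.08 to 7.49 for Cyp2b13 and 6.06 to 10.74 for Cyp2b9. Counted from 1 at the 5' end of the window, the substitutions from Cyp2b13 to Cyp2b9 are C48T and T104C.
Cyp2b13: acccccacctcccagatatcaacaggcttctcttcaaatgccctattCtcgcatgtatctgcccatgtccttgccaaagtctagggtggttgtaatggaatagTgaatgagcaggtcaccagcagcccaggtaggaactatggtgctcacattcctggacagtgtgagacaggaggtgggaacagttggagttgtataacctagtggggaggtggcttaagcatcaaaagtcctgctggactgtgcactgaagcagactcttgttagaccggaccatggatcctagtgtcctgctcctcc
Cyp2b9: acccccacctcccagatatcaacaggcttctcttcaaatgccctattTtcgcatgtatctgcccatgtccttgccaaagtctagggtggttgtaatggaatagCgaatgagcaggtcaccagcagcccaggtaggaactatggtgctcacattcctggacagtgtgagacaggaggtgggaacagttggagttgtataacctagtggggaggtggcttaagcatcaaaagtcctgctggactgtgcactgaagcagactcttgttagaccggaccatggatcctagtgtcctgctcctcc
Cyp2d10 (chr15:82407145-82407444, minus strand) and Cyp2d9 (chr15:82452127-82452426, plus strand) share 252 of 300 bases. Cyp2d10 varied little within a group, while Cyp2d9 ranged widely among livers.
Cyp2d10: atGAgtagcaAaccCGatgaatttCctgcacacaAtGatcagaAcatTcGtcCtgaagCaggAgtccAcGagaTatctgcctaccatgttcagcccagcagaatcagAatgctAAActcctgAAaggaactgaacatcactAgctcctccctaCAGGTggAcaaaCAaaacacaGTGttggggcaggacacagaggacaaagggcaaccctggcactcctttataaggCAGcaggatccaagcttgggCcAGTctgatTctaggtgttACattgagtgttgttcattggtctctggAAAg
Cyp2d9: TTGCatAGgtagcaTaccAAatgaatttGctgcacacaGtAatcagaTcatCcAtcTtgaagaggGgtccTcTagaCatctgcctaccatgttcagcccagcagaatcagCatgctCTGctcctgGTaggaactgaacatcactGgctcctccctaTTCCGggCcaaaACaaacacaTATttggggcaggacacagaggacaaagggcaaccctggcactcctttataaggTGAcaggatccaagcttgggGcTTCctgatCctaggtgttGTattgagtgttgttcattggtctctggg
Promoters were found for 27 of the 35 members. The TATA box TATAAA, on either strand, was in 12 of them (44.4%), against 14.2% of 27025 genes, and the nuclear receptor half-site AGGTCA was in 9 (33.3%), against 16.0%. The forkhead (FOXA) motif TGTTTAC was in 3 (Cyp2c38, Cyp2c39 and Cyp2j5), against 3.55% of genes, and the STAT5 motif TTCNNNGAA in 1 (Cyp2j11), against 8.47%. These are matches of letters within the windows and no more.

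The remaining measured 2c genes were less uniform. Of 11 members, 7 fell and 0 rose, with a median log2 difference of -2.10, where 17.4% of all genes fell and 16.1% rose. Cyp2c29, another fatty acid oxidising enzyme that is abundant in mouse liver, was 10.09, 12.84, 8.68, 12.72 and 9.32 in tumours, against 14.15, 14.14, 14.21 and 13.79 in livers. Tumours 2 and 4 came nearest to the livers, and the groups did not overlap (-3.35, SE 0.86, limma adjusted p = 0.0165). Cyp2c23, which makes epoxides of arachidonic acid, was 10.15, 8.71, 9.17, 10.31 and 9.23 in tumours, against 13.09, 12.84, 12.74 and 13.45 in livers, a difference of -3.52 (SE 0.33, adjusted p = 8e-05) in which no tumour came near the livers. Cyp2c68 read 12.92, 12.30, 12.27, 11.87 and 12.15 in tumours, against 14.15, 14.22, 14.45 and 13.05 in livers. Its groups did not overlap either, but liver 4 was close to tumour 1 (difference -1.66, SE 0.30, adjusted p = 0.00302). Cyp2c70, the mouse enzyme that turns bile acids into muricholic acids, was 13.14, 13.49, 12.19, 13.07 and 13.56 in tumours, against 14.19, 14.32, 14.42 and 14.11 in livers (difference -1.17, SE 0.25, adjusted p = 0.00729). Tumour 3 was its lowest array.

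The 4 members of the 2c subfamily that did not pass were of different kinds. Cyp2c38 and Cyp2c39 varied strongly among livers, with liver 4 lowest. They are taken up beside the sex-dependent genes, among which they were not listed. Cyp2c65, a gene of the gut, lay near the TrpnX control on every array (4.06 to 4.47 in tumours and 4.16 to 4.38 in livers). Cyp2c55, known from the colon, was 9.93, 7.62, 6.73, 9.30 and 8.11 in tumours, against 7.40, 6.62, 7.75 and 7.96 in livers. Tumours 1, 4 and 5 lay above all livers while tumours 2 and 3 lay among them, and the difference of 0.90 (95% interval -0.48 to 2.29, limma adjusted p = 0.277) was the highest of the family without passing. It was 0.50 without tumour 1.

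Cyp2e1, which oxidises ethanol and paracetamol and marks hepatocytes around the central vein, is the only gene of its subfamily. It stood at 8.87, 12.46, 9.16, 12.46 and 8.77 in tumours, against 15.01, 14.97, 14.86 and 14.89 in livers. No tumour reached the livers, and the tumours fell into a pair (2 and 4) at one level and the other 3 well below. The log2 difference was -4.59 (SE 0.86, limma adjusted p = 0.00367), or 24.1-fold. Cyp2f2, a naphthalene-oxidising enzyme and a marker of hepatocytes near the portal vein, did not pass. It was 13.07, 14.26, 11.99, 13.49 and 13.85 in tumours, against 13.24, 11.98, 12.50 and 14.54 in livers, and the groups overlapped throughout. Its difference was 0.27 (95% interval -1.03 to 1.57, adjusted p = 0.736), and it ranged over -0.091 (without liver 2) to 0.76 (without liver 4) when 1 array was left out.

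Genes outside the family listed for the same zones were read alongside. Their counts are to be set beside the 17.4% of all genes called lower and the 16.1% called higher. Of 20 measured genes of central-vein hepatocytes, 16 were lower in tumours and 0 higher, with a median of -2.66. Among them, the glutamate transporter gene Slc1a2 had a log2 difference of -5.26 (SE 0.28), the transcription factor gene Tbx3 -3.23 (SE 0.19) and Lect2, which encodes a secreted protein, -5.51 (SE 0.38). Of 15 measured genes listed for portal hepatocytes, 5 were lower and 2 higher, with a median of -0.64. The bile acid enzyme gene Cyp8b1 had -4.68 (SE 0.33), Asl of the urea cycle -1.55 (SE 0.27) and the gluconeogenic gene Pck1 -4.52 (SE 1.05), whereas Hsd17b13, which encodes a lipid droplet protein, had 1.31 (SE 0.13). These lists were chosen with earlier results of these data known, and the difference between them was not tested. The zone of a listed gene was not measured here, and that of Cyp8b1 is uncertain.

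The tumours differed among themselves. Among the 7 members lowered 8-fold or more, Cyp2e1 and Cyp2c29 stood highest in tumours 2 and 4, whereas Cyp2c37, Cyp2c50 and Cyp2c54 stood highest in tumour 4. Tumour 2 had the highest Cyp2e1 of the tumours (12.46) and the lowest Cyp2c50 (6.61). Tumour 2 held the highest value among tumours for 7 of the 19 lowered members, and tumours 1, 3, 4 and 5 for 1, 4, 4 and 3. The median of the 19 members relative to the liver mean was -2.28, -1.24, -2.24, -1.94 and -2.16 in tumours 1 to 5. With 5 tumours no correlation between members was computed.

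**Figure D3:**
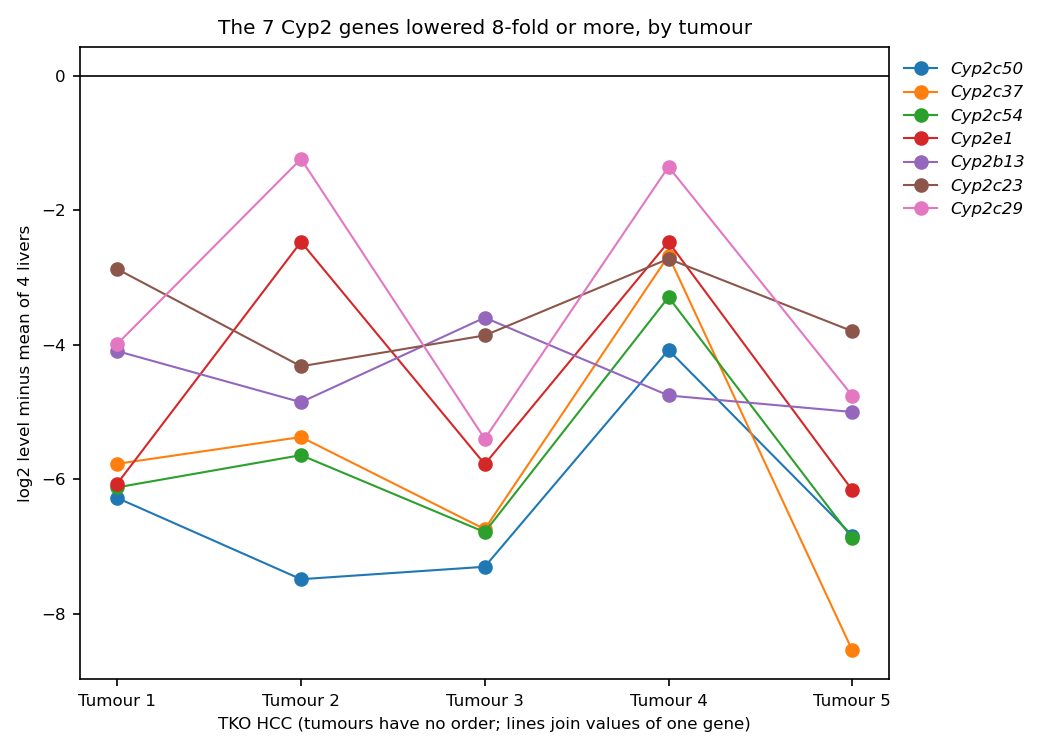
Level of the 7 Cyp2 genes lowered 8-fold or more in each of the 5 tumours, as the log2 difference from the mean of the 4 livers (line at 0). Cyp2e1 and Cyp2c29 come nearest to the liver level in tumours 2 and 4, and Cyp2c50, Cyp2c37 and Cyp2c54 in tumour 4. For Cyp2b13 the mean includes liver 4, which lay within the range of its tumours.

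The 2d genes, many of which metabolise amine drugs, fell by smaller amounts. Of 8 members, 5 fell and 0 rose, with a median log2 difference of -0.51, where 17.4% of all genes fell and 16.1% rose. Cyp2d10 was 12.75, 12.77, 13.02, 13.12 and 13.29 in tumours, against 13.94, 13.997, 13.76 and 14.23 in livers. Despite the small step of -0.99 (SE 0.14, limma adjusted p = 0.000806), the groups did not overlap. Cyp2d26 was 13.39, 13.72, 13.60, 13.29 and 13.97 in tumours, against 14.21, 14.14, 13.94 and 14.13 in livers (difference -0.51, SE 0.14, adjusted p = 0.0212). Tumour 5 lay above liver 3. Leaving out liver 1 (-0.47) or liver 2 (-0.50) ended the call. Cyp2d13, annotated in RefSeq as a transcribed pseudogene, was 6.27, 6.85, 6.31, 6.61 and 6.39 in tumours, against 8.60, 8.55, 7.93 and 9.13 in livers, a difference of -2.07 (SE 0.22, adjusted p = 0.000191). No tumour reached the livers, and its other probe set gave -3.78. Cyp2d40 was 5.65, 5.67, 5.77, 5.43 and 5.70 in tumours, against 6.39, 5.995, 6.47 and 6.86 in livers, with no overlap (difference -0.78, SE 0.16, adjusted p = 0.0052).

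Cyp2d34 lay low in both groups, at 4.47 to 4.70 in tumours and 4.76 to 5.45 in livers, and its call (-0.45, SE 0.13, adjusted p = 0.029) was lost without tumour 1 (-0.45), tumour 2 (-0.41), tumour 5 (-0.44) or liver 1 (-0.44). Cyp2d22, often named the mouse counterpart of human CYP2D6, was 10.29, 10.04, 10.92, 10.96 and 11.18 in tumours, against 11.40, 10.96, 10.77 and 11.58 in livers. The groups overlapped, and the difference of -0.50 (95% interval -1.10 to 0.10) did not pass. Cyp2d12 read 5.40 to 6.64 in tumours and 5.22 to 6.39 in livers, with a difference of 0.06 (95% interval -0.60 to 0.71) whose sign turned without tumour 5 (-0.15) or liver 3 (-0.13).

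The 2j genes encode enzymes that make epoxides of arachidonic acid, and 3 of 5 fell, where 17.4% of all genes did. Cyp2j5, the liver and kidney member, was 10.69, 12.76, 9.19, 9.996 and 9.88 in tumours, against 13.51, 13.41, 13.44 and 13.18 in livers. Tumour 2 came nearest to the livers and the other tumours stayed well below (difference -2.88, SE 0.61, limma adjusted p = 0.00666), and its second probe set gave -2.92. Cyp2j9 was 5.29, 6.74, 5.73, 6.15 and 5.71 in tumours, against 6.995, 7.56, 7.06 and 8.48 in livers, with no overlap and liver 4 highest (difference -1.60, SE 0.36, adjusted p = 0.00918). Cyp2j6 was 9.49, 9.76, 8.67, 8.53 and 9.35 in tumours, against 9.13, 9.21, 9.23 and 8.46 in livers, and its overlapping groups differed by 0.15 (95% interval -0.48 to 0.78). That sign turned without liver 4 (-0.031), when arrays were centred on the 75th percentile (-0.027), and in the mean of its 2 probe sets (-0.15). Cyp2j13, at 4.06 to 4.23 in tumours and 4.35 to 4.60 in livers, passed with -0.31 (SE 0.08, adjusted p = 0.0131) although its tumour mean lay within the range of the TrpnX control. Cyp2j11, at 5.26 to 5.39 in tumours and 5.39 to 5.69 in livers, did not pass (-0.21, adjusted p = 0.104).

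**Figure D4:**
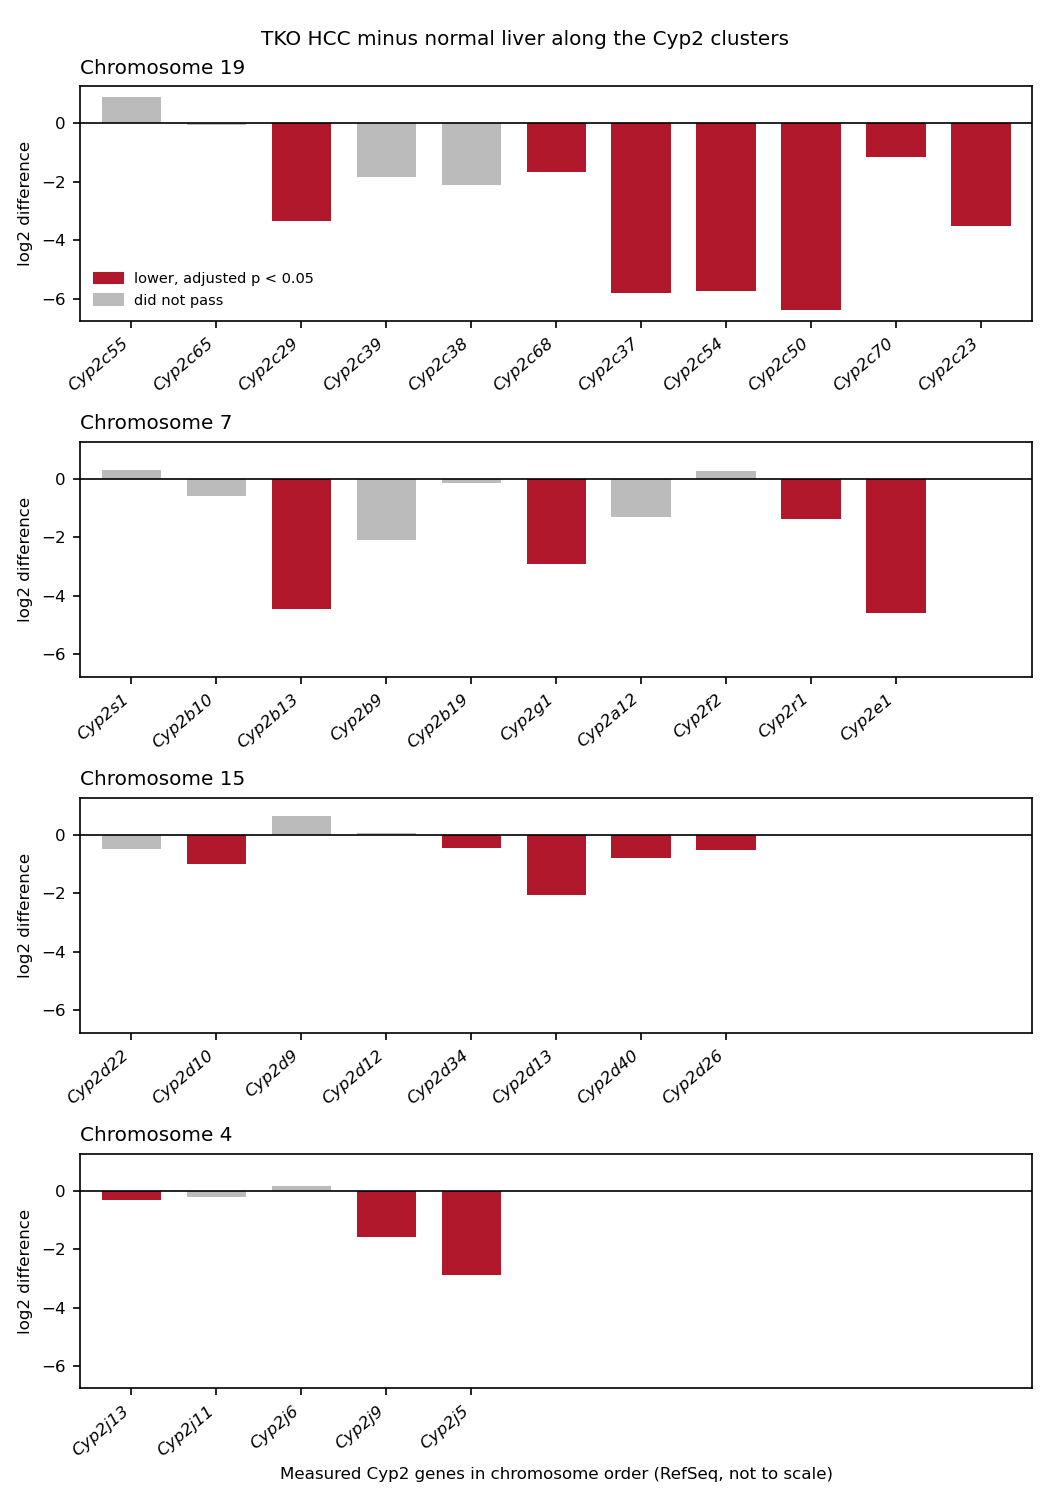
Log2 difference (TKO HCC minus normal liver) of measured Cyp2 genes in RefSeq order on chromosomes 19, 7, 15 and 4 (bars, equal spacing, not to scale), with red for genes past the threshold. The lowest bars on chromosome 19 are the neighbours Cyp2c37, Cyp2c54 and Cyp2c50, while on chromosome 7 Cyp2f2 (0.27) stands between its measured neighbours Cyp2a12 (-1.30) and Cyp2r1 (-1.36).

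On chromosome 7, 4 of the 10 measured genes fell (Cyp2b13, Cyp2g1, Cyp2r1 and Cyp2e1), where 17.4% of all genes did. Cyp2r1, which activates vitamin D by hydroxylation in the liver, was 8.16, 8.45, 6.93, 7.34 and 7.63 in tumours, against 8.59, 9.20, 9.34 and 9.12 in livers. The groups were apart, though tumour 2 came close to liver 1 (difference -1.36, SE 0.30, limma adjusted p = 0.0085). Cyp2a12, a steroid hydroxylase, was 13.38, 10.29, 12.53, 12.07 and 12.70 in tumours, against 13.51, 13.45, 13.49 and 13.53 in livers. All tumours lay below all livers, but tumour 1 nearly reached them and tumour 2 was far below, and the difference of -1.30 (SE 0.52, adjusted p = 0.0818) did not pass. It passed without tumour 1 (-1.59) or without tumour 2 (-0.82). Cyp2s1, a gene of epithelia outside the liver, was 6.82, 5.93, 7.73, 5.88 and 6.28 in tumours, against 6.28, 6.204, 6.17 and 6.18 in livers. Tumours 1 and 3 were above the livers, the other tumours were not, and the difference of 0.32 (95% interval -0.46 to 1.10) did not pass. It was 0.020 without tumour 3 and 0.48 without tumour 4. Cyp2b19, a skin gene, lay within the range of the TrpnX control in both groups (3.98 to 4.06 in tumours and 4.06 to 4.30 in livers). Cyp2u1 on chromosome 3, a fatty acid hydroxylase, ranged over 7.07 to 7.18 in tumours and 7.11 to 8.51 in livers, with liver 4 alone above the tumours' range by a wide step, and did not pass (-0.39, adjusted p = 0.282). The difference was -0.049 without liver 4, its other probe set gave 0.30, and the mean of the 2 probe sets gave -0.044.

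Cyp2b10, the classical target of the constitutive androstane receptor (CAR), did not pass. It was 7.92, 10.04, 6.85, 8.84 and 8.54 in tumours, against 9.22, 9.23, 9.80 and 7.82 in livers. Tumour 2 was above every liver and tumour 3 below every liver, and the difference of -0.58 (95% interval -1.97 to 0.81, limma adjusted p = 0.484) did not pass. It was -0.98 without tumour 2, -0.18 without tumour 3, -0.32 without liver 3 and -0.98 without liver 4. Its 2 other probe sets gave -0.73 and -0.94 and did not pass either. Nr1i3, the gene of that receptor, was 6.34, 7.36, 7.82, 7.87 and 9.05 in tumours, against 11.13, 10.61, 10.83 and 10.78 in livers, a difference of -3.15 (SE 0.44, adjusted p = 0.000839) with no overlap. Among tumours, Nr1i3 was highest in tumour 5 and Cyp2b10 in tumour 2.

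Of 26 measured genes for transcription factors and their partners known to act on Cyp2 genes, 7 were higher in tumours and 1, Nr1i3, was lower. Their median difference was 0.39, and of all genes 16.1% were higher and 17.4% lower. The genes of this list with the smallest adjusted p among those that rose were Ctnnb1 (beta-catenin) at 0.56 (SE 0.08), Cux2 at 0.47 (SE 0.10) and Rxrb at 0.47 (SE 0.11). Nr1i2 and Hnf4a are named for their role, after their values were seen. Nr1i2, which encodes the pregnane X receptor, ranged over 8.52 to 10.49 in tumours and 8.42 to 9.77 in livers and did not pass (0.49, adjusted p = 0.383). Hnf4a, a master factor of hepatocytes, ranged over 12.49 to 13.00 in tumours and 12.12 to 12.84 in livers and did not pass (0.20, adjusted p = 0.365).

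Partners of P450 enzymes in general, not all of them partners of Cyp2, moved both ways. Of 7 measured electron transfer genes, 4 were lower and 2 higher, where 17.4% and 16.1% of all genes were. Cyb5a, the gene of cytochrome b5, ranged over 13.43 to 14.01 in tumours and 14.16 to 14.33 in livers (-0.62, SE 0.12). Pgrmc1, a haem-binding P450 partner, had a difference of -0.83 (SE 0.16) and the ferredoxin gene Fdx1 one of -1.30 (SE 0.33). Cyb5r1, a cytochrome b5 reductase gene, was 9.25, 9.87, 9.71, 10.27 and 9.67 in tumours, against 7.10, 7.25, 7.29 and 7.61 in livers, a difference of 2.44 (SE 0.19) with no overlap. Of 7 measured haem synthesis genes, 4 were lower and 1 higher. Alas1, the rate-limiting enzyme, had a difference of -1.15 (SE 0.32), Urod -0.73 (SE 0.12) and Uros -0.65 (SE 0.13), whereas Ppox had 0.95 (SE 0.19). Por, the gene of the common P450 reductase, was not analysed here.

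Several members differed sharply among the livers, along with the sex markers of the arrays. Xist, the RNA that silences an X chromosome in female cells, was low in tumour 1 (6.34), tumour 2 (6.39) and liver 4 (6.66), and 12.68 to 13.55 on the other 6 arrays, so a level of 10 was taken to part low from high. The Y-linked gene Eif2s3y was high on the same 3 arrays (9.16 to 10.30) and at 3.55 to 4.32 elsewhere. Liver 4 stood more than 2 log2 units from the mean of the other livers for 6 members, a gap that was not counted over all genes. It was lower for Cyp2b9, Cyp2c39, Cyp2b13, Cyp2c38 and Cyp2g1 and higher for Cyp2d9. Cyp2b9 and Cyp2b13 are known as genes of female mouse liver and Cyp2d9, a testosterone hydroxylase, as a gene of male mouse liver. With 1 liver of low Xist, any other property of that sample cannot be told apart from sex.

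Of the female-type genes measured, Cyp2b13 passed the test and Cyp2b9 did not. Cyp2b13 was 6.99, 6.23, 7.49, 6.33 and 6.08 in tumours, against 12.40, 12.77, 12.86 and 6.31 in livers. All tumours, those of high Xist included, were close to liver 4, and the other livers were far above. The log2 difference of -4.46 (SE 1.25, limma adjusted p = 0.0235) was lost as a call without tumour 5 (-4.33), liver 1 (-4.02), liver 2 (-3.90) or liver 3 (-3.87). Cyp2b9 was 9.65, 6.06, 10.74, 7.93 and 7.22 in tumours, against 11.85, 12.79, 12.66 and 4.40 in livers. Every tumour lay between liver 4 and the other livers, and the difference of -2.10 (95% interval -6.07 to 1.86, adjusted p = 0.373) did not pass. It passed without liver 4 (-4.11), and was -1.32 without liver 2 and -1.36 without liver 3. Cyp2g1, best known from the olfactory mucosa, was 6.19, 5.95, 6.53, 6.30 and 5.94 in tumours, against 9.55, 9.47, 10.13 and 7.25 in livers, and tumours were below even liver 4 (-2.92, SE 0.50, adjusted p = 0.00236).

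Cyp2c39, a retinoic acid hydroxylase, was 9.30, 10.05, 7.01, 11.01 and 9.65 in tumours, against 13.09, 13.05, 12.91 and 5.93 in livers, and again all tumours lay between liver 4 and the others. Its difference of -1.84 (95% interval -5.25 to 1.56) did not pass, and did without liver 4 (-3.61). Without liver 1 it was -1.23. Cyp2c38 was 8.84, 10.90, 6.89, 9.18 and 7.90 in tumours, against 12.24, 11.70, 11.07 and 8.37 in livers (-2.10, 95% interval -4.22 to 0.01). Here tumours 3 and 5 were below liver 4 and the other tumours above it, and the gene passed only without liver 4 (-2.93) or tumour 2 (-2.64) among the fits that left out 1 array. Cyp2d9 was 11.03, 12.14, 10.79, 8.85 and 11.78 in tumours, against 9.65, 8.57, 8.51 and 14.33 in livers. Liver 4 was far above all other arrays, and tumours of either Xist level were intermediate, with tumour 4 among the high-Xist livers (0.65, 95% interval -2.05 to 3.36). That difference was 2.01 without liver 4 (limma adjusted p = 0.0636), 1.17 without tumour 4 and 0.35 without tumour 2. It was 0.088 without liver 2 and 0.069 without liver 3.

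**Figure D5:**
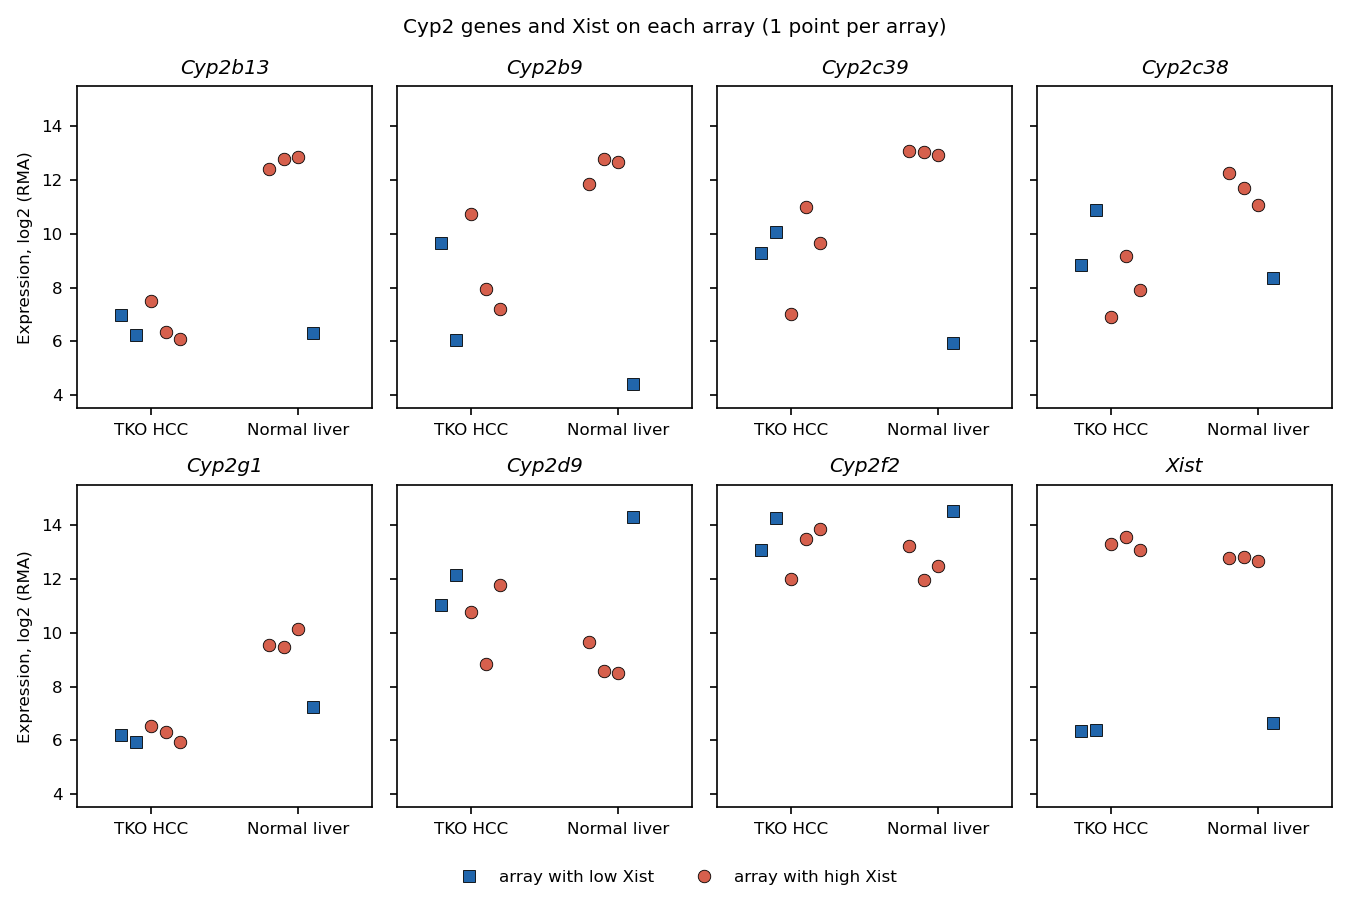
Log2 expression of 7 Cyp2 genes and Xist on each array, tumours on the left and livers on the right of every panel; squares are arrays with low Xist, circles arrays with high Xist. For Cyp2b13 all tumours sit at or near the low-Xist liver (6.31), for Cyp2b9 and Cyp2c39 all tumours lie between that liver and the others, and for Cyp2d9 that liver (14.33) is above every other array.

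Among the 6 arrays with high Xist, 3 tumours and 3 livers, 20 members were lower and 0 higher, against 12.5% and 15.4% of all genes. Cyp2a12, Cyp2b9, Cyp2c38 and Cyp2c39 joined the lowered members there, and Cyp2d26, Cyp2d34 and Cyp2j13 left them. On these arrays Cyp2b13 differed by -6.04 (SE 0.37, limma adjusted p = 0.00017), Cyp2b9 by -3.80 (SE 0.88, adjusted p = 0.0218), Cyp2c39 by -3.79 (SE 0.93, adjusted p = 0.026) and Cyp2c38 by -3.68 (SE 0.59, adjusted p = 0.00594). Cyp2d9 averaged 10.47 ± 1.49 (SD, n = 3) in these tumours and 8.91 ± 0.64 (SD, n = 3) in these livers, a difference of 1.56 (95% interval -0.22 to 3.35) that did not pass. Cyp2e1 (-4.82) and Cyp2c50 (-5.999) remained past the threshold on them. With the Xist level as a covariate over all 9 arrays the count was again 19 lower and 0 higher, with 17.4% of all genes lower.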

How the data were processed

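Per the labels' protocols, Trizol RNA went through 2 rounds of RiboAmp amplification. The deposited values are log2 expression per probe set, made by the authors with RMA per the submitters' processing notes; no version or settings are stated. RMA compresses differences of dim probe sets. The table holds 45101 probe sets on 9 arrays, with array medians of 6.22 to 6.27, whose small number bounds the precision. Gene names came from the platform annotation, and each gene was read from its single-gene probe set of highest mean across the 9 arrays.

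Groups, taken from sample titles, were compared with limma 3.58.1 (lmFit, eBayes, two-sided, no covariate) in R 4.3.3 on all 18193 genes, with Benjamini-Hochberg adjustment and a threshold of 0.05. Apart from those of the 2 RNA length controls, every adjusted p refers to this fit, or to the same fit on the arrays named beside it. The fit was tested on simulated data. Gene order came from RefSeq (GRCm38.p6). Promoters were compared with biopython 1.88, and plots drawn with matplotlib 3.10.9. Alternatives changed the probe sets, filter, scaling, test, arrays and Xist adjustment. Per-array values were to be given for the markers, the largest decreases, the sex-dependent genes and the brightest member of each subfamily, and up to 4 genes of each other list. Members and lists were chosen with earlier results of these data known.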

Additional observations from a re-analysis of the deposited data

Results flagged for a closer look

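A single liver stood far from the other livers for 6 members, judged by Dixon's criterion, which flags about 1 in 20 groups by chance; 70 groups (35 genes in tumours and in livers) were examined, and no tumour stood apart. Liver 4 accounted for 5 of the 6. It read 6.31 for Cyp2b13, where the others read 12.40 to 12.86. For Cyp2b9 it read 4.40, where the others read 11.85 to 12.79, and for Cyp2c39 5.93, where they read 12.92 to 13.09. Its Cyp2j6 was 8.46, where the others read 9.13 to 9.23, and its Cyp2u1 was 8.51, where they read 7.11 to 7.20. Liver 3 read 10.44 for Cyp2c54, where the others read 13.11 to 13.26.

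For 4 members, every tumour of low Xist lay above the low-Xist liver while every tumour of high Xist lay below the high-Xist livers. The tumour minus liver difference of the low-Xist arrays exceeded that of the high-Xist arrays by 7.25 for Cyp2b9, 7.54 for Cyp2c39, 5.18 for Cyp2c38 and 2.50 for Cyp2b10. These differences between the Xist levels were not tested, and the low-Xist side rests on 2 tumours and 1 liver. How many of all genes showed the same arrangement was not counted.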

How the results depend on the processing

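The 20 alternatives left 0 Cyp2 genes higher in tumours. The count of lowered members was 14 to 23, and the members' median was -1.63 to -0.98. The lowest count came from the fit with a replicate block, which called 8.4% of all genes lower. The highest came from the scaling to the 75th percentile, which called 43.9% of all genes lower. Leaving out 1 array at a time gave 16 to 22 lowered members and a median of -1.29 to -0.98. Those fits called 12.6% to 17.1% of all genes lower. They put 4632 to 6361 of all genes past the threshold in either direction, against 6091 from all arrays. That count was 3561 when arrays were centred on housekeeping genes (of which 6 of 12 measured were higher and 1 lower in tumours), 10310 when they were centred on the 75th percentile and 3552 with the replicate block. The 2 scalings moved the median of all genes to 0.11 and -0.26. The share of higher calls went to 77.6% and 22.6%, against 48.0%. They called 15 and 23 members lower, with 4.4% and 43.9% of all genes called lower. In all, 12 lowered members kept their call in every alternative that tested them, and how many of all genes did so was not counted. Centring on housekeeping genes ended the calls of Cyp2d26, Cyp2d34, Cyp2d40 and Cyp2j13. Tumours and livers of equal number are not known to be pairs: their deviations from the group means correlated at -0.129, -0.067, 0.180 and -0.121 for numbers 1 to 4. The replicate block ended those of Cyp2b13, Cyp2c29, Cyp2d34, Cyp2j13 and Cyp2r1. The sign turned only for members that had not passed: Cyp2b19 (0.058) and Cyp2c65 (0.12) with housekeeping centring, Cyp2d12 (-0.12) and Cyp2j6 (-0.027) with the 75th percentile, Cyp2d12 (-0.15) with the replicate block, Cyp2j6 (-0.15) with the mean of probe sets and (-0.34) without low-Xist arrays, and, leaving out 1 array, Cyp2d12 (-0.15 to 0.26), Cyp2f2 (-0.091 to 0.76) and Cyp2j6 (-0.031 to 0.31). The causes of these changes were not tested. The means of Cyp2b19 and Cyp2c65 lay within the TrpnX range in both groups, so their differences cannot be read. Counts of the other gene lists were not recomputed under other scalings.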

Other observations

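A further probe set, which the annotation assigns to Cyp2a5 and Cyp2a4 together, was kept out of the comparison because it names 2 genes. Cyp2a5 encodes the mouse coumarin hydroxylase and Cyp2a4 a steroid hydroxylase. The shared probe set read 14.16, 12.59, 15.05, 14.66 and 13.75 in tumours, against 14.49, 14.52, 14.84 and 13.86 in livers. Tumour 3 was its highest array and tumour 2 its lowest, and the groups overlapped, with a log2 difference of -0.39 (95% interval -1.39 to 0.62). In tumour 2, the array with the highest Cyp2b10 and Cyp2j5 among tumours, both this probe set and Cyp2a12 (10.29) were at their lowest.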
